A study of Mus musculus with 12 samples.

Results

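The spleens of mice fed a high-fat diet enriched in EPA and DHA (HFD-ED) were compared with those of mice fed a low-fat control diet, using 8 of the 12 arrays of the series, 4 for each of these diets, chosen by the diet in the sample titles. The other 4 arrays came from mice on a corn oil high-fat diet (HFD-CO). They entered only the common estimate of the spread, the choice of a probe for each gene and the mean by which genes are called dim. All mice were male C57Bl/6J, arrived at 6 weeks of age, were acclimatized for 3 weeks and then ate their diet for 8 weeks. The control diet contained 5 g fat per 100 g, of which 2.5 g was corn oil and 2.5 g coconut oil, without added cholesterol. HFD-ED held 10 g coconut oil, 3 g corn oil and 2 g of EPA/DHA oil in 100 g, which makes 15 g fat, and 1 g of cholesterol. The diets also differed in their casein, sucrose and corn starch, so that the amount of fat, the cholesterol, the n-3 fatty acids, the protein and the carbohydrate cannot be told apart here. Each array held the RNA of 1 mouse, and the authors had picked the mice for the arrays by their weight and their plasma lipids.

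EPA and DHA are long-chain n-3 fatty acids found in marine oils. They enter membrane phospholipids, compete with arachidonic acid for the enzymes that make prostaglandins and leukotrienes, and act as ligands of nuclear receptors of lipid metabolism. The spleen filters the blood: its red pulp removes aged red cells and, in the mouse, also makes red cells, granulocytes and platelets, whereas its white pulp holds the B cells, T cells and dendritic cells that start immune responses.

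The deposited values are normalized log2 intensities of 45281 probes. Genes were read from 1 probe per symbol, that with the highest mean over the 12 arrays, which gave 19057 genes. A difference below is always the HFD-ED mean minus the control mean in log2 units, and adjusted p-values come from limma with Benjamini-Hochberg adjustment over all probes. A gene is called dim where its mean over the 12 arrays is under 7.5, which holds for 63.2% of the genes. Differences of dim genes are compressed. The sample titles and tissue label name spleen, although 1 of the protocol descriptions speaks of skeletal muscle. Of 13 genes that define spleen, the median mean over the 8 mice was 10.9, the highest being Cd74, the invariant chain of MHC class II, and 3 were dim. Of 17 skeletal muscle genes, 14 were dim. Arrays of the control mice correlated with each other at r from 0.990 to 0.995 over probes, and those of the HFD-ED mice at r from 0.971 to 0.994.

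No probe passed an adjusted p of 0.05 between HFD-ED and control by limma (0 of 45281, 0%), the smallest adjusted p being 0.071. At an unadjusted p under 0.05 there were 4620 probes, 2054 higher and 2566 lower in HFD-ED. Of the genes, 1084 were higher at that level (5.69% of 19057) and 1438 lower (7.55%). In 380 genes all 4 HFD-ED mice lay above all 4 control mice (1.99%) and in 666 all lay below (3.49%). Such genes are described below as without overlap. A plain test per probe likewise called 0 probes at an adjusted p of 0.05. When HFD-ED replicate 1 was left out, 87 probes passed, with 35 genes higher and 23 lower. Leaving out any other mouse gave 0 probes. Replicate 1 was the HFD-ED mouse that deviated least from the control mean over all genes. Leaving it out therefore selects mice by their outcome. The adjusted p-values without replicate 1 given below describe the remaining mice and are not calls. With the test run on 1 probe per gene symbol, Klra3, Klre1 and Zfp58 passed over all 4 mice at an adjusted p of 0.0392, each lower in HFD-ED. No other difference below is a call over all 4 mice.

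The 4 HFD-ED mice did not deviate from the control mice to the same extent. Over all genes the root mean square deviation from the control mean was 0.105 log2 units in HFD-ED replicate 1, 0.186 in replicate 2, 0.279 in replicate 3 and 0.160 in replicate 4. Each control mouse deviated from the mean of the other 3 control mice by 0.0964 to 0.123, so that replicate 1 lay within that range. Large differences upward were mostly not shared by replicate 1. Of the 260 genes at least 0.5 log2 units higher in HFD-ED, replicate 1 lay above the control mean in 111, against 259, 260 and 259 for replicates 2, 3 and 4, and 20 were without overlap. Of the 60 genes at least 1 log2 unit higher, replicate 1 lay above the control mean in 18, and 0 were without overlap. Downward the mice were more alike. Of the 38 genes at least 0.5 log2 units lower, replicate 1 lay below the control mean in 34, and 20 were without overlap. No gene was 1 log2 unit lower or more. Among the genes at an unadjusted p under 0.05, replicate 1 had the sign of the difference in 862 of the 1084 higher and 1381 of the 1438 lower ones.

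**Figure D1:**
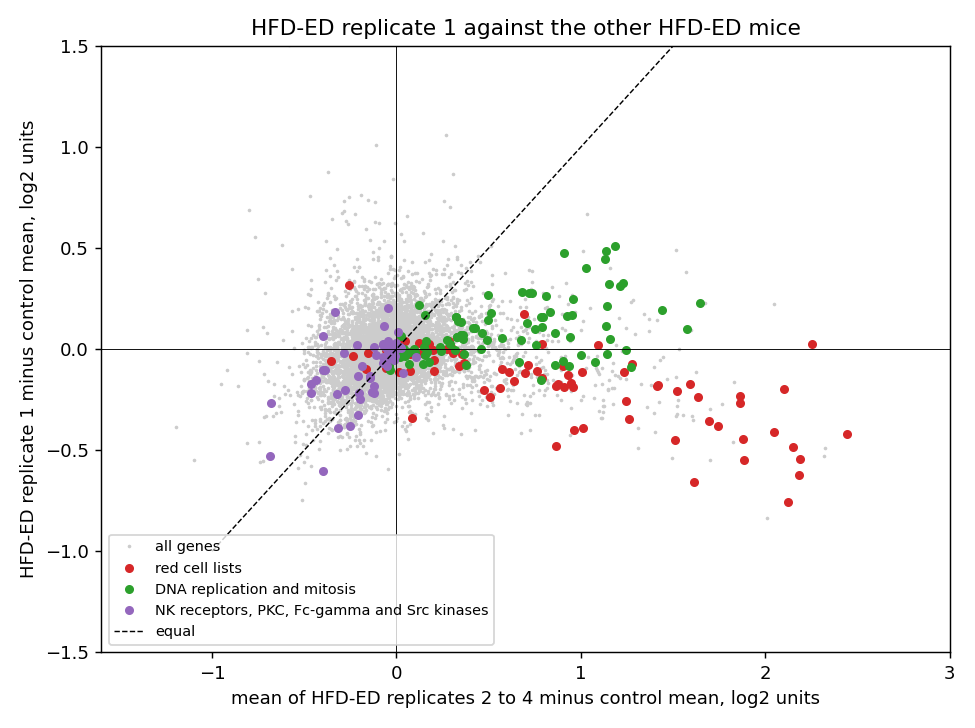
Each point is a gene, with the mean of HFD-ED replicates 2 to 4 minus the control mean (log2 units) on the horizontal axis and HFD-ED replicate 1 minus the control mean (log2 units) on the vertical axis, and the dashed line marks equal deviation. Genes of the red cell lists (red) extend to the right, DNA replication and mitosis genes (green) lie to the right with replicate 1 above the control mean in 30 of 44 and 32 of 47, and NK receptor and kinase genes (purple) lie to the left, while 3 genes fall outside the axes.

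The lists with the highest median differences were those of haem synthesis and of the red cell membrane, and they were carried by HFD-ED replicates 2, 3 and 4. Erythroblasts divide under the factors GATA1 and KLF1 and the erythropoietin receptor, take up iron through the transferrin receptor, make haem in the mitochondria and build a spectrin skeleton before they lose their nucleus. Of 18 genes of haem synthesis and iron uptake 16 were higher, with a median difference of 0.65, beside -0.0036 over all genes. Of 26 genes of the red cell membrane and its partners 24 were higher (median 0.66), of 19 erythroid factors 14 (median 0.26) and of 21 genes of reticulocyte maturation 19 (median 0.26). At an unadjusted p under 0.05 were 9, 15, 7 and 9 of these members, all higher, where 5.69% of all genes were higher at that level. Without overlap were 1 haem gene (5.6%), 1 membrane gene (3.8%) and 0 of the other two lists, beside 1.99% of all genes. The median of the erythroid factors was 0.16 without HFD-ED replicate 3.

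Replicate 1 did not share these differences. The median deviation of the haem list from the control mean was -0.19, 0.92, 1.14 and 0.69 in HFD-ED replicates 1 to 4 and -0.14, -0.19, 0.051 and 0.27 in control replicates 1 to 4. Replicate 1 lay above the control mean in 1 of 18 haem genes, 7 of 26 membrane genes, 3 of 19 factors and 4 of 21 maturation genes. In each of the 4 list medians HFD-ED replicates 2, 3 and 4 were above every control mouse, and replicate 1 was below control replicates 3 and 4.

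Car1, a carbonic anhydrase of red cells, measured 8.71, 8.59, 9.84 and 9.87 in the control mice and 9.28, 10.76, 12.42 and 11.34 in the HFD-ED mice, a difference of 1.70 (SE 0.61, adjusted p = 0.40). Sptb, the beta chain of red cell spectrin, measured 8.11, 7.93, 9.07 and 9.86 in control against 8.32, 11.03, 11.70 and 10.83 in HFD-ED, a difference of 1.73 (SE 0.73, adjusted p = 0.455). Of the 5 probes of Sptb, 1 had the opposite sign. In Car1 and Sptb, HFD-ED replicate 1 lay among the control mice and the other 3 mice lay above all of them. Mgst3, a microsomal glutathione transferase, differed by 1.61, with replicate 1 at 8.57 in the control range of 8.28 to 10.08. Slc38a5, an amino acid transporter, differed by 1.62, with replicate 1 at 8.44 in the control range of 8.06 to 10.07. Asns, asparagine synthetase, measured 8.22, 8.36, 9.52 and 9.40 in control against 9.10, 10.80, 11.62 and 10.35 in HFD-ED, a difference of 1.59 (SE 0.50, adjusted p = 0.346). Replicate 1 lay above control replicates 1 and 2 of Asns but below control replicates 3 and 4. These 5 genes had the largest differences of all genes.

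The members without overlap were Xk, a red cell membrane protein, and Slc25a39, a mitochondrial carrier. Slc25a39 measured 8.19, 8.16, 8.17 and 8.30 in control against 8.38, 9.14, 8.92 and 8.64 in HFD-ED, a difference of 0.56 (SE 0.15, adjusted p = 0.310), with replicate 1 just above the highest control mouse. Xk, a dim gene, measured 7.23 to 7.26 in control and 7.28, 7.53, 7.55 and 7.49 in HFD-ED, with replicate 1 just above the control mice. The adjusted p of 0.252 for Xk became 0.00949 without replicate 1. Abcb10, a mitochondrial transporter of erythroid cells, measured 7.36, 7.32, 7.53 and 7.83 in control against 7.32, 8.63, 8.505 and 8.26 in HFD-ED. Replicate 1 was level with the lowest control mouse of Abcb10, and the adjusted p went from 0.410 to 0.0483 without that mouse. Tspo2, an erythroid membrane protein, measured 7.25, 7.22, 7.35 and 7.63 in control against 7.38, 8.51, 8.90 and 7.95 in HFD-ED, a difference of 0.82 (SE 0.28, adjusted p = 0.380), with replicate 1 inside the control range. Abcb6, a mitochondrial ABC transporter, differed by 0.51 (adjusted p = 0.389, and 0.0495 without replicate 1), with replicate 1 at the level of the lowest control mouse.

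Among the factors, replicate 1 again lay with the control mice. Gata1, a dim gene, measured 7.15, 7.16, 7.22 and 7.25 in control against 7.18, 7.34, 7.68 and 7.48 in HFD-ED, a difference of 0.22 (SE 0.085, adjusted p = 0.411). Gfi1b, a transcriptional repressor expressed in erythroid cells and megakaryocytes, measured 7.47, 7.30, 7.61 and 7.87 in control against 7.45, 8.14, 9.06 and 8.504 in HFD-ED (adjusted p = 0.436). E2f2, a cell cycle factor, measured 9.55, 9.86, 10.10 and 10.79 in control against 9.89, 11.48, 11.79 and 11.19 in HFD-ED (adjusted p = 0.431). Replicate 1 lay within the control range in each of these 3 genes. Klf1, Tfrc and Alas2, which define erythroid cells, were chosen after their values were seen. Klf1, the erythroid Kruppel-like factor, measured 7.96, 7.94, 9.04 and 9.71 in control against 8.12, 10.74, 11.47 and 10.35 in HFD-ED (adjusted p = 0.513). Tfrc, the transferrin receptor, measured 9.41, 9.18, 10.61 and 11.09 in control against 9.88, 11.93, 12.78 and 11.81 in HFD-ED (adjusted p = 0.467). Replicate 1 lay among the control mice in both. Alas2, the first enzyme of erythroid haem synthesis, measured 12.04, 11.83, 11.70 and 12.08 in control against 11.43, 12.91, 12.91 and 12.53 in HFD-ED (adjusted p = 0.665), so that replicate 1 lay below every control mouse. In whole spleen, more cells of a type and more RNA per cell cannot be told apart.

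**Figure D2:**
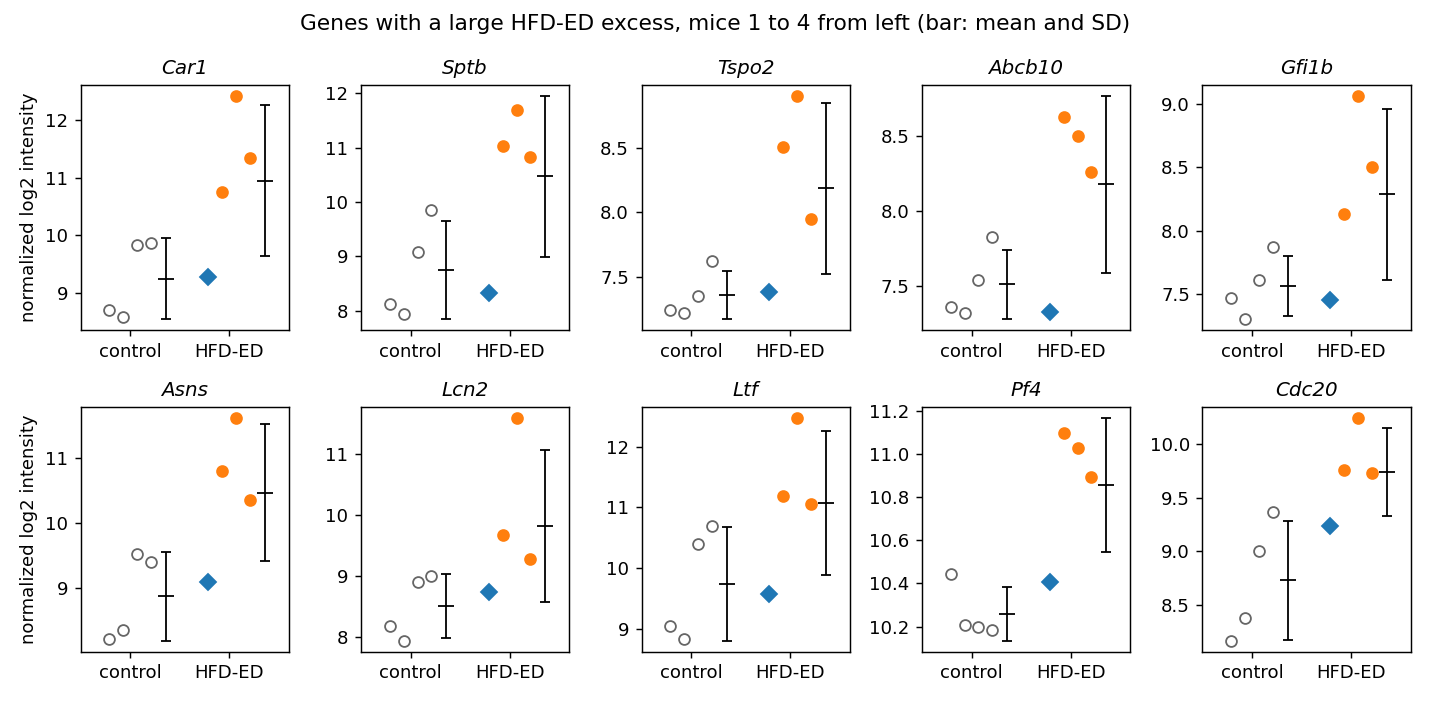
Normalized log2 intensity in each mouse for 10 genes, with control mice 1 to 4 (open circles) and HFD-ED mice 1 to 4 (replicate 1 as a blue diamond) from left to right and the mean and SD of each group as a bar; each panel has its own axis. HFD-ED replicate 1 lies within the control range in all 10 panels, and replicates 2 to 4 lie above all control mice in all 10.

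The promoters of erythroid and DNA replication genes were read for known motifs, as a description of sequence only. Windows of 300 bases, most of them upstream of the gene start, came from RefSeq (GRCm38.p6) and were searched on both strands for GATAA and AGATAA, the core of GATA factor sites, CACCC, the core of KLF1 sites (GGGTG on the other strand), and the E2F motifs TTTGGCGC and TTTCCCGC. Those shown are Slc25a39, the haem gene without overlap (chr11:102407468-102407767, minus strand), Gata1, the erythroid factor (chrX:7967861-7968160, minus strand), and Mcm6, a subunit of the replicative helicase (chr1:128359656-128359955, minus strand), which was chosen after its window was seen. Capitals mark CACCC or GGGTG in Slc25a39 and Gata1, where GATAA was not found, and TTTGGCGC in Mcm6.
Slc25a39: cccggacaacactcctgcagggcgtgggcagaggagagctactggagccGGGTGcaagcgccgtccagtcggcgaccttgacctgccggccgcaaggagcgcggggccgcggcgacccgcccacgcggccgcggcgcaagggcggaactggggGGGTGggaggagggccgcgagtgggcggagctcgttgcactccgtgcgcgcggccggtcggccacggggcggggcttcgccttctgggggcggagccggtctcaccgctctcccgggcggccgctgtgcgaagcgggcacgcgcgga
Gata1: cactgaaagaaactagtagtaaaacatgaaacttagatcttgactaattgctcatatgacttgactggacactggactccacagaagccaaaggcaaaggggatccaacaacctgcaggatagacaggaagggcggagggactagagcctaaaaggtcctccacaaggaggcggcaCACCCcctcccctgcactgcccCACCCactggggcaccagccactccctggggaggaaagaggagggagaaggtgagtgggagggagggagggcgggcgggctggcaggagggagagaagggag
Mcm6: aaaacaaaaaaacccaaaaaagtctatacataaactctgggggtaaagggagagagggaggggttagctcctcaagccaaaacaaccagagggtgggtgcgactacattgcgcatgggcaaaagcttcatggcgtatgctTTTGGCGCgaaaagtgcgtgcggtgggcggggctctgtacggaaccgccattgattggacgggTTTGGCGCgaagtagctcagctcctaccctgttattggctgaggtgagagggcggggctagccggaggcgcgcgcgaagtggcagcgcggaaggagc
Each of the 3 windows holds 2 marked matches. Of 47 erythroid list genes with a window, 38.3% held GATAA, against 21.8% of the 15237 measured genes with one, 21.3% against 9.58% held AGATAA, which contains it, and 87.2% against 59.5% held CACCC. Of 36 DNA replication genes, 30.6% held TTTGGCGC or TTTCCCGC, against 2.27% of all.

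Genes of cell division were higher in HFD-ED, with replicate 1 on the same side but closer to the control mice. Of 44 DNA replication genes 42 were higher, with a median difference of 0.36, and 33 had an unadjusted p under 0.05. Of 47 genes of the mitotic spindle, kinetochore and chromosome condensation 44 were higher (median 0.44), 35 at that level. Among all genes 5.69% were higher at that level. Groups did not overlap in 5 (11.4%) and 6 (12.8%) of them, all with HFD-ED above, against 1.99% of all genes. The replication medians of HFD-ED replicates 1 to 4 were 0.059, 0.36, 0.63 and 0.35, and the mitosis medians 0.057, 0.39, 0.80 and 0.47. Control replicates 1 to 4 had -0.16, -0.084, 0.047 and 0.19 for replication and -0.20, -0.10, 0.077 and 0.21 for mitosis, so that replicate 1 of HFD-ED lay between control replicates 3 and 4 for replication and between 2 and 3 for mitosis.

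Rfc2, a subunit of the clamp loader, measured 10.31, 10.26, 10.37 and 10.50 in the control mice and 10.63, 10.67, 10.92 and 10.99 in the HFD-ED mice, a difference of 0.44 (SE 0.081, adjusted p = 0.204). All 4 HFD-ED mice, replicate 1 included, were above the highest control mouse, and all 4 probes of the gene were higher. Dnmt1, which copies DNA methylation after replication, measured 9.001, 9.43, 9.21 and 9.37 in control against 9.64, 10.13, 9.89 and 9.90 in HFD-ED, a difference of 0.64 (SE 0.12, adjusted p = 0.204), also shared by replicate 1. Without replicate 1 the adjusted p was 0.0495 for Rfc2 and 0.0495 for Dnmt1. Gins2, part of the replicative helicase, differed by 0.30 (adjusted p = 0.252), and Pola2, a subunit of the primase complex, by 0.28 (adjusted p = 0.295). The condensin subunits Ncapg2 and Ncapg differed by 0.34 and 0.26 (adjusted p = 0.215 and 0.298). Ncapg was dim, and of its 3 probes 1 had the opposite sign. Ndc80, a kinetochore protein, measured 7.57 to 7.76 in control and 7.82 to 8.06 in HFD-ED. None of these 5 genes overlapped between the groups.

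Other members differed by more, and the groups overlapped or came close to it. Cdc20, the activator of the anaphase-promoting complex, measured 8.17, 8.37, 9.01 and 9.37 in control against 9.24, 9.76, 10.24 and 9.73 in HFD-ED, a difference of 1.01 (SE 0.27, adjusted p = 0.302), in which replicate 1 lay below control replicate 4. Top2a, topoisomerase II alpha, Tyms, thymidylate synthase, and Mcm6 were named after their values were seen. Top2a measured 8.02, 8.15, 8.99 and 8.91 in control against 9.001, 9.29, 10.27 and 9.38 in HFD-ED (adjusted p = 0.369), and Tyms 7.89, 8.11, 8.71 and 8.66 in control against 8.75, 9.06, 9.91 and 9.14 in HFD-ED (adjusted p = 0.370). Replicate 1 lay just above the highest control mouse in Top2a and Tyms. Mcm6 measured 9.56, 9.80, 9.91 and 10.20 in control against 10.15, 10.50, 10.67 and 10.65 in HFD-ED (adjusted p = 0.297), with replicate 1 below control replicate 4. Hmgb2, a chromatin protein, measured 8.75, 8.62, 9.24 and 9.40 in control against 9.67, 9.62, 10.82 and 9.66 in HFD-ED, a difference of 0.94 (SE 0.30, adjusted p = 0.346), and all 4 HFD-ED mice were above the control mice.

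Of 37 cyclins, cyclin-dependent kinases and inhibitors, 27 were higher and 10 lower (median 0.15). Rb1, the retinoblastoma protein, differed by 0.55, with HFD-ED replicate 1 at 9.70 inside the control range of 9.53 to 9.73, and the adjusted p of 0.305 became 0.0442 without it. Ccnf, a dim cyclin gene, was higher in all 4 mice by 0.087 on average (adjusted p = 0.251). Ccnd1, cyclin D1, went the other way, at 10.85, 10.90, 10.96 and 10.87 in control against 10.60, 10.66, 10.24 and 10.54 in HFD-ED, a difference of -0.38 (SE 0.089, adjusted p = 0.252) in which every HFD-ED mouse lay below every control mouse. Of 37 DNA repair genes 25 were higher (median 0.069). Ung, which removes uracil from DNA, differed by 0.28 (adjusted p = 0.344), with replicate 1 at 8.32 above the control range of 7.84 to 8.19. Of the 5 probes of Ung, 1 had the opposite sign.

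**Figure D3:**
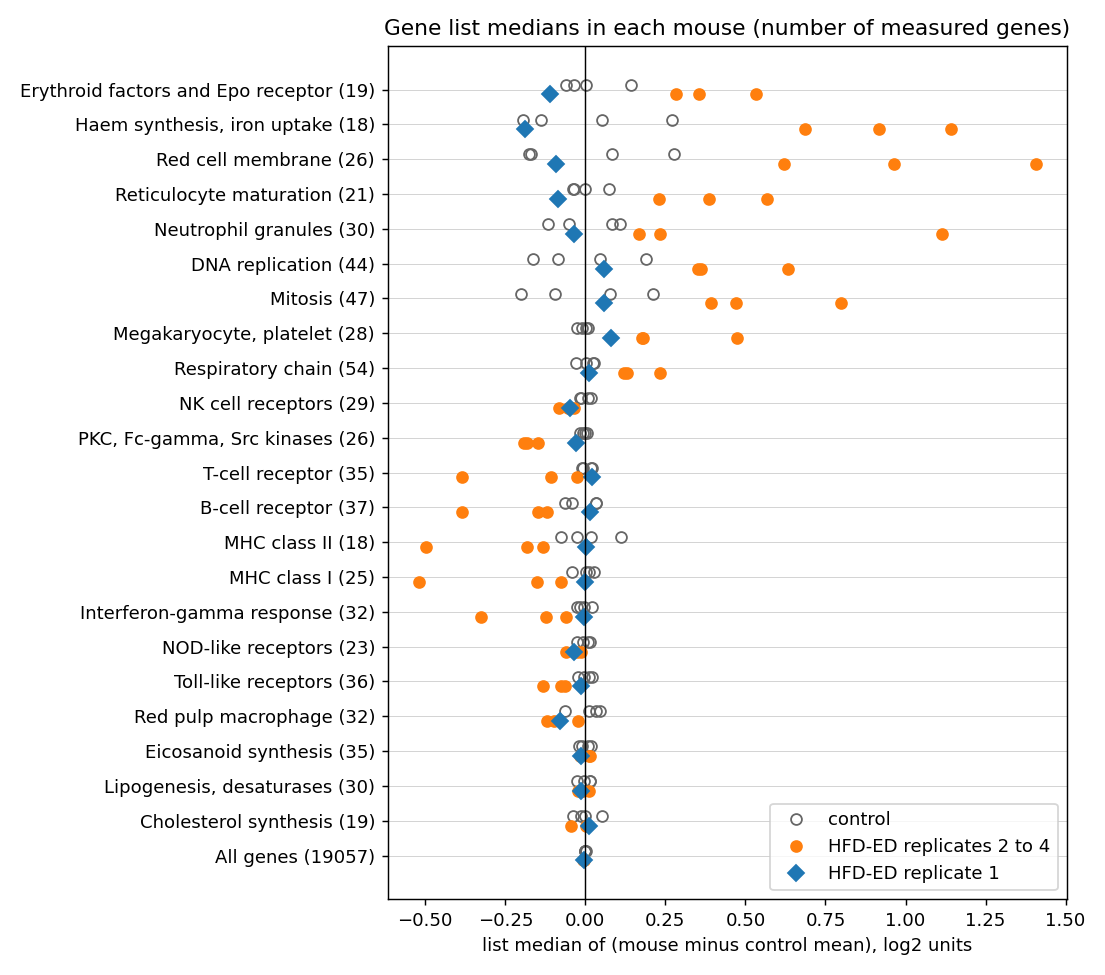
For each gene list, with its number of measured genes in brackets, the median over its genes of the value in a mouse minus the control mean is plotted for every mouse on the horizontal axis in log2 units (control open circles, HFD-ED replicates 2 to 4 orange, HFD-ED replicate 1 blue diamond). The medians of replicate 1 are -0.19 for the haem list, 0.059 for DNA replication and 0.080 for megakaryocyte genes, the last above all 4 control mice.

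Megakaryocyte and platelet genes had a list median above that of every control mouse in all 4 HFD-ED mice. Megakaryocytes of the red pulp shed platelets, whose granules carry chemokines and whose surface carries the glycoprotein Ib complex and the fibrinogen receptor. Of 28 genes 24 were higher (median 0.21). At an unadjusted p under 0.05 were 15 higher and 1 lower, where all genes give 5.69% and 7.55%. Without overlap, 8 lay above control, that is 28.6% against 1.99% of all genes, and 1 below (3.6%, against 3.49%). The median was 0.12 without HFD-ED replicate 3. The list medians of the HFD-ED mice were 0.080, 0.18, 0.47 and 0.18, against 0.0095, -0.025, 0.00095 and -0.011 in control. Replicate 1 lay above the control mean in 20 of the genes and in all 7 members that were at least 0.5 log2 units higher.

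Alox12, the platelet 12-lipoxygenase that oxidizes arachidonic acid, measured 9.72, 9.56, 9.49 and 9.58 in the control mice and 9.97, 10.09, 10.75 and 10.13 in the HFD-ED mice, a difference of 0.65 (SE 0.14, adjusted p = 0.251). Every HFD-ED mouse was above every control mouse. Of the 3 probes of Alox12, 1 had the opposite sign. Gp1bb, the beta chain of glycoprotein Ib, measured 7.78, 7.63, 7.74 and 7.62 in control against 7.84, 8.20, 8.31 and 8.17 in HFD-ED, a difference of 0.43 (SE 0.088, adjusted p = 0.231), with replicate 1 above the control mice by the smallest margin, and the adjusted p was 0.0134 without it. Pf4, platelet factor 4, measured 10.45, 10.21, 10.20 and 10.19 in control against 10.41, 11.10, 11.03 and 10.89 in HFD-ED, a difference of 0.60 (SE 0.13, adjusted p = 0.252). It overlapped because control replicate 1 was just above HFD-ED replicate 1, and without HFD-ED replicate 1 the adjusted p was 0.00949. Treml1, a platelet granule receptor, and Gp5, of the glycoprotein Ib complex, were also without overlap and were named after their values were seen. Treml1 differed by 0.78 (adjusted p = 0.252, and 0.0453 without replicate 1) and Gp5 by 0.67 (adjusted p = 0.264). Pdgfb, a growth factor of platelets and endothelium and the member below control in all 4 mice, differed by -0.21 (adjusted p = 0.313), and was likewise named after its values were seen. Vwf, von Willebrand factor of endothelium and megakaryocytes, differed by 0.34 (adjusted p = 0.344), with replicate 1 at 8.76 inside the control range. Vwf had another probe, of opposite sign.

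Neutrophil genes were higher mostly in replicate 3. Of 30 neutrophil granule and surface genes 28 were higher (median 0.40). Of these, 4 had an unadjusted p under 0.05, where 5.69% of all genes were higher at that level. Without overlap were 0, beside 1.99% of all genes with HFD-ED above. Without HFD-ED replicate 3 the median was 0.14. The list medians of the HFD-ED mice were -0.037, 0.23, 1.11 and 0.17, against -0.050, -0.12, 0.083 and 0.11 in control. Lcn2, lipocalin 2, measured 8.19, 7.95, 8.91 and 9.01 in control against 8.74, 9.68, 11.59 and 9.28 in HFD-ED, a difference of 1.31 (SE 0.51, adjusted p = 0.429). Ltf, lactoferrin, measured 9.05, 8.84, 10.39 and 10.69 in control against 9.58, 11.19, 12.47 and 11.06 in HFD-ED, a difference of 1.33 (SE 0.60, adjusted p = 0.491). Replicate 1 lay inside the control range in both. Ngp, the neutrophilic granule protein, differed by 1.15 (adjusted p = 0.446) and Chil3, a chitinase-like protein, by 1.05 (adjusted p = 0.410), with replicate 1 again inside the control range. Hdc, histidine decarboxylase of mast cells and basophils, measured 8.33, 8.02, 8.22 and 8.11 in control against 8.47, 8.37, 9.90 and 8.42 in HFD-ED (adjusted p = 0.495), without overlap and with replicate 3 far above the rest.

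Receptor genes of NK cells had a list median below the control mean in all 4 HFD-ED mice, replicate 1 included (-0.049, -0.055, -0.035 and -0.082 in replicates 1 to 4). NK cells carry lectin-like receptors that read MHC class I, among them the Klra (Ly49) family and heterodimers of Klrd1. Of 29 NK cell receptors 25 were lower, with a median difference of -0.049, and 21 of them were dim. Groups did not overlap in 9, all lower, which is 31% against 3.49% of all genes. These were Klra3, Klra4, Klra9, Klra10, Klrd1, Klre1, Klri2, Cd244a and Slamf7, of which those beyond Klra3, Klre1 and Slamf7 were named after their values were seen. Their differences ran from -0.45 in Klra4 to -0.045 in Klra9. At an unadjusted p under 0.05 were 9 members, all lower, where 7.55% of all genes were lower at that level.

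Klra3 measured 8.19, 8.09, 8.06 and 8.16 in the control mice and 7.73, 7.86, 7.76 and 7.80 in the HFD-ED mice, a difference of -0.34 (SE 0.040, adjusted p = 0.0710). Klre1 measured 8.17, 8.12, 8.06 and 8.10 in control against 7.73, 7.87, 7.84 and 7.86 in HFD-ED, a difference of -0.29 (SE 0.034, adjusted p = 0.0710). HFD-ED replicate 1 had the lowest value of all 8 mice for both genes. With 1 probe per symbol, and so fewer tests, their adjusted p was 0.0392, and without replicate 1 it was 0.0366 for Klra3 and 0.0134 for Klre1. Klra4 measured 9.03, 9.01, 8.83 and 8.73 in control against 8.30, 8.57, 8.27 and 8.65 in HFD-ED (adjusted p = 0.265), and Klrd1 10.36, 10.20, 10.09 and 10.02 in control against 9.95, 9.88, 9.42 and 9.80 in HFD-ED (adjusted p = 0.380). Some members of the Klra family may be close in sequence, which was not compared here. A probe of one may then take up transcripts of another, and which member was measured is uncertain. Slamf7, a receptor of NK and plasma cells, measured 8.47, 8.43, 8.46 and 8.42 in control against 8.29, 8.12, 7.86 and 8.06 in HFD-ED, a difference of -0.36 (SE 0.076, adjusted p = 0.247), and the adjusted p was 0.0385 without replicate 1, which was the HFD-ED mouse nearest to control.

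Of 24 cytotoxic effectors and regulators 21 were lower (median -0.062) and 6 were without overlap (25%, against 3.49% of all genes). The list median of replicate 1 did not share the shift, at 0.0015 with 12 genes above the control mean. Its genes were split, however. It had the sign of the difference in 15 genes. In 13 it lay beyond every control mouse in that direction, as it did in 6218 of all 19057 genes. HFD-ED replicates 2 to 4 had list medians of -0.050, -0.13 and -0.070. Ccl5, a chemokine of cytotoxic cells, measured 12.21, 11.91, 11.69 and 11.71 in control against 11.56, 11.54, 11.01 and 11.51 in HFD-ED, a difference of -0.48 (SE 0.14, adjusted p = 0.342). Ctsw, cathepsin W of NK and cytotoxic T cells, differed by -0.46 (adjusted p = 0.297). Both were lower in all 4 mice. Prf1, perforin, named after its values were seen, overlapped widely, at 11.65, 11.62, 11.24 and 11.45 in control against 11.16, 11.48, 10.69 and 11.65 in HFD-ED (adjusted p = 0.789). Xcl1, a chemokine of NK cells, differed by -0.23 (adjusted p = 0.317) with overlap, and replicate 1 lay below all control mice.

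Signalling genes of Fc and antigen receptors were lower as well. Of 26 protein kinase C isoforms, Fc-gamma receptors, Src kinases and partners 23 were lower (median -0.16). Of these, 13 had an unadjusted p under 0.05, where 7.55% of all genes were lower at that level, and 6 were without overlap (23.1%, against 3.49% of all genes). The list medians of the HFD-ED mice were -0.028, -0.15, -0.18 and -0.19, so that replicate 1 deviated least. Prkcd, protein kinase C delta, measured 10.67, 10.85, 10.68 and 10.65 in control against 10.54, 10.23, 10.09 and 10.43 in HFD-ED, a difference of -0.39 (SE 0.086, adjusted p = 0.252). Blk, a Src kinase of B cells, measured 11.20, 11.31, 10.995 and 11.18 in control against 10.91, 10.54, 10.23 and 10.70 in HFD-ED, a difference of -0.58 (SE 0.13, adjusted p = 0.252). In both, replicate 1 was the HFD-ED mouse nearest to the control mice but was below all of them. Prkcq, protein kinase C theta of T cells, and Vav2, an exchange factor, differed by -0.14 and -0.26 (adjusted p = 0.193 and 0.251) without overlap. Of the 4 probes of Vav2, 1 had the opposite sign. Fcgr4, an activating Fc receptor named after its values were seen, measured 10.21, 10.42, 11.46 and 10.55 in control against 10.13, 10.09, 9.97 and 9.87 in HFD-ED (adjusted p = 0.374), where control replicate 3 stood above the rest. Prkcb, protein kinase C beta, and Ptk2b, a focal adhesion kinase relative, are genes the study names. Prkcb differed by -0.31 and Ptk2b by -0.28 (adjusted p = 0.341 and 0.409), with replicate 1 inside the control range at 11.84 and 8.38.

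**Figure D4:**
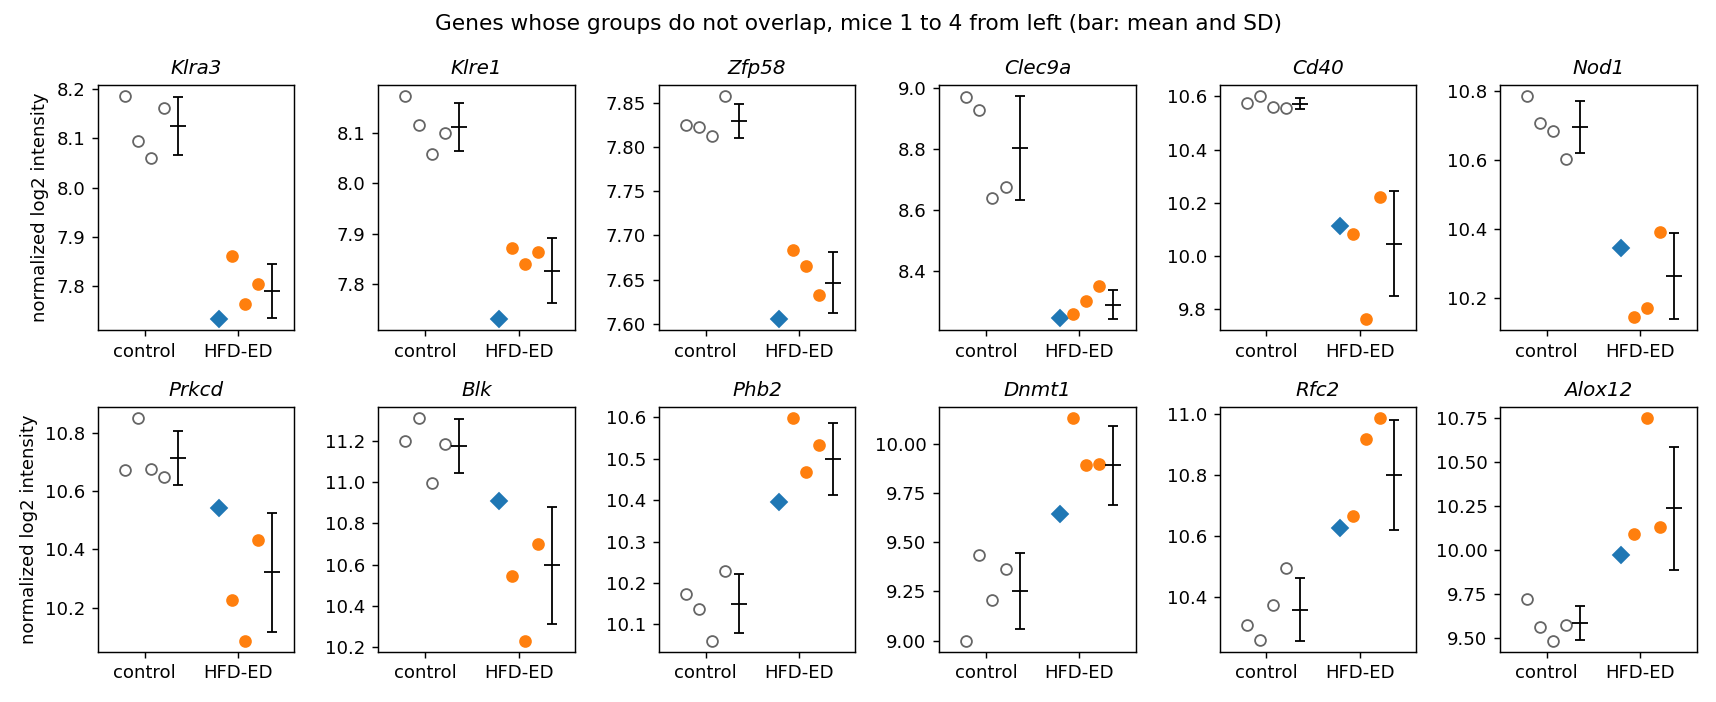
Normalized log2 intensity in each mouse for 12 genes whose groups did not overlap, with control mice 1 to 4 (open circles) and HFD-ED mice 1 to 4 (replicate 1 as a blue diamond) from left to right and the mean and SD of each group as a bar; each panel has its own axis. Replicate 1 is the lowest of the 8 mice for Klra3, Klre1, Zfp58 and Clec9a. It is the HFD-ED mouse nearest to the control mean for Prkcd, Blk, Phb2, Dnmt1, Rfc2 and Alox12.

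Genes of innate sensing were lower by small amounts. Of 36 Toll-like receptor genes 28 were lower (median -0.11), of 23 NOD-like receptor and inflammasome genes 16 (median -0.034) and of 23 NF-kB genes 21 (median -0.13). In HFD-ED replicate 1 these list medians were -0.014, -0.035 and 0.012, with 16, 5 and 12 members above the control mean. Replicate 1 thus did not share the shift of the NF-kB list. Groups did not overlap in 5, 2 and 2 members, all lower, that is 13.9%, 8.7% and 8.7% against 3.49% of all genes. Without HFD-ED replicate 3 the Toll-like and NF-kB medians were -0.068 and -0.066, without replicate 1 the NOD-like and NF-kB medians -0.022 and -0.20, without control replicate 2 the NOD-like median -0.051 and without control replicate 4 the NF-kB median -0.20. Nod1, a cytosolic sensor of bacterial peptidoglycan, measured 10.79, 10.71, 10.68 and 10.60 in control against 10.35, 10.14, 10.17 and 10.39 in HFD-ED, a difference of -0.43 (SE 0.073, adjusted p = 0.193), shared by replicate 1. Tlr4, the receptor of lipopolysaccharide, measured 8.20, 8.29, 8.14 and 8.14 in control against 7.96, 7.87, 8.04 and 7.87 in HFD-ED, a difference of -0.26 (SE 0.050, adjusted p = 0.207). Of the 3 probes of Tlr4, 1 had the opposite sign. Ly96, the co-receptor of Tlr4, and Cd180, a Toll-like receptor relative on B cells, differed by -0.37 and -0.23 (adjusted p = 0.276 and 0.297), each with replicate 1 below all control mice. Casp1, the inflammasome protease, differed by -0.26 (adjusted p = 0.297), with replicate 1 at 11.49 just below the control range of 11.51 to 11.57. Malt1 and Cyld, which promote and restrain NF-kB signalling, differed by -0.58 and -0.38 (adjusted p = 0.335 and 0.252), again in all 4 mice. Of 29 genes of the TNF family 19 were lower (median -0.036). Birc2, a ubiquitin ligase, and Casp8, a caspase of TNF receptor complexes, differed by -0.36 and -0.25 (adjusted p = 0.252 and 0.252) without overlap.

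The lists of B cells, T cells and antigen presentation were lower in replicates 2 to 4 and close to the control mean in replicate 1. Of 37 B cell genes 32 were lower (median -0.16), of 35 T cell receptor genes 30 (median -0.14), of 18 MHC class II genes 17 (median -0.20), of 25 MHC class I genes 20 (median -0.15) and of 32 genes of the interferon-gamma response 26 (median -0.15). In replicate 1 these list medians were 0.016, 0.021, 0.0014, -0.0025 and -0.0027, whereas in replicate 3 they were -0.38, -0.38, -0.50, -0.52 and -0.33. Without replicate 3 the medians of the differences were -0.080, -0.057, -0.10, -0.043 and -0.066 in the same order. Without replicate 1 those of MHC class II and I were -0.30 and -0.25, and without control replicate 2 that of the T cell receptor genes was -0.078. Replicate 3 was also the mouse with the highest medians of the red cell lists, and the part of the red cell genes in these differences was not tested.

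Single genes of these lists, and of the co-stimulation, dendritic cell and type I interferon lists, did separate all mice. Cd40, the receptor through which T cells help B cells and dendritic cells, measured 10.57, 10.60, 10.56 and 10.56 in control against 10.11, 10.08, 9.76 and 10.22 in HFD-ED, a difference of -0.53 (SE 0.081, adjusted p = 0.193), with replicate 1 at the level of replicate 2. Of the 5 probes of Cd40, 1 had the opposite sign. Clec9a, a receptor of cross-presenting dendritic cells for dead cells, measured 8.97, 8.93, 8.64 and 8.67 in control against 8.25, 8.26, 8.30 and 8.35 in HFD-ED, a difference of -0.51 (SE 0.079, adjusted p = 0.193), in which replicate 1 had the lowest value. Cd274 (PD-L1), the ligand of an inhibitory T cell receptor, measured 10.10, 9.95, 9.97 and 9.92 in control against 9.80, 9.44, 9.10 and 9.58 in HFD-ED (adjusted p = 0.268). Rasgrp1, an activator of Ras in T cells, differed by -0.44 and H2-DMa, which helps load peptides on MHC class II, by -0.43 (adjusted p = 0.252 and 0.276), each with replicate 1 below all control mice. Parp14 and Mx2 of the interferon response, of which Mx2 was dim, differed by -0.56 and -0.11 (adjusted p = 0.295 and 0.252). Irgm2, an interferon-induced GTPase, measured 10.17, 9.98, 10.16 and 10.06 in control against 9.97, 9.71, 9.69 and 9.71 in HFD-ED, a difference of -0.32 (SE 0.064, adjusted p = 0.207). Replicate 1 stood above the other HFD-ED mice of Irgm2 and only just below the lowest control mouse, and the adjusted p was 0.0171 without it.

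In other genes of this kind replicate 1 lay inside the control range. Marchf1, a ubiquitin ligase that removes MHC class II from the surface, measured 9.51, 9.50, 9.47 and 9.19 in control against 9.43, 8.93, 8.90 and 8.99 in HFD-ED, with an adjusted p of 0.344 that became 0.0452 without replicate 1. Cd74 measured 14.50, 14.47, 14.40 and 14.20 in control against 14.35, 14.06, 13.80 and 14.04 in HFD-ED (adjusted p = 0.344). H2-D1 of MHC class I differed by -0.37 (adjusted p = 0.344). H2-DMb2, H2-Oa and H2-Ob, which regulate peptide loading and which the study names, differed by -0.38, -0.29 and -0.24 (adjusted p = 0.409, 0.736 and 0.707). This held for all 6. By contrast Fcmr, the IgM Fc receptor, was lower in all 4 mice by a difference of -0.20 (adjusted p = 0.273). Cd24a, a surface protein that red cell precursors share with B cells, was the B cell list member above control in all 4 mice and was named after its values were seen, at 7.20, 7.18, 7.28 and 7.33 in control against 7.34, 7.72, 7.83 and 7.502 in HFD-ED (adjusted p = 0.307).

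Genes of red pulp macrophages, which take up old red cells and recycle their iron, were lower in 25 of 32 cases (median -0.091), with 5 members below and 1 above control without overlap (15.6% and 3.1%, against 3.49% and 1.99% of all genes). The list medians of the HFD-ED mice were -0.080, -0.023, -0.12 and -0.10, against 0.033, 0.045, 0.012 and -0.063 in control, so that control replicate 4 lay below HFD-ED replicate 2. The median difference was -0.044 without HFD-ED replicate 3 and -0.039 without replicate 4. Spic, the factor that specifies these macrophages, measured 11.28, 11.12, 11.26 and 11.20 in control against 10.64, 10.88, 10.80 and 10.57 in HFD-ED, a difference of -0.49 (SE 0.16, adjusted p = 0.371). Slc40a1, the iron exporter ferroportin, measured 13.37, 13.48, 13.36 and 13.27 in control against 12.89, 13.14, 13.24 and 13.09 in HFD-ED, a difference of -0.28 (SE 0.084, adjusted p = 0.342). Replicate 1 was below all control mice for Spic and the lowest of all mice for Slc40a1. Slc40a1 had another probe, of opposite sign. Mertk and Axl, receptors for dying cells, differed by -0.33 and -0.21 (adjusted p = 0.252 and 0.298) without overlap. The stromal chemokine Cxcl12 measured 12.32, 12.17, 12.12 and 12.21 in control against 11.77, 12.02, 11.93 and 11.89 in HFD-ED, a difference of -0.30 (SE 0.059, adjusted p = 0.207), again with replicate 1 the lowest. Of the 5 probes of Cxcl12, 1 had the opposite sign.

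**Figure D5:**
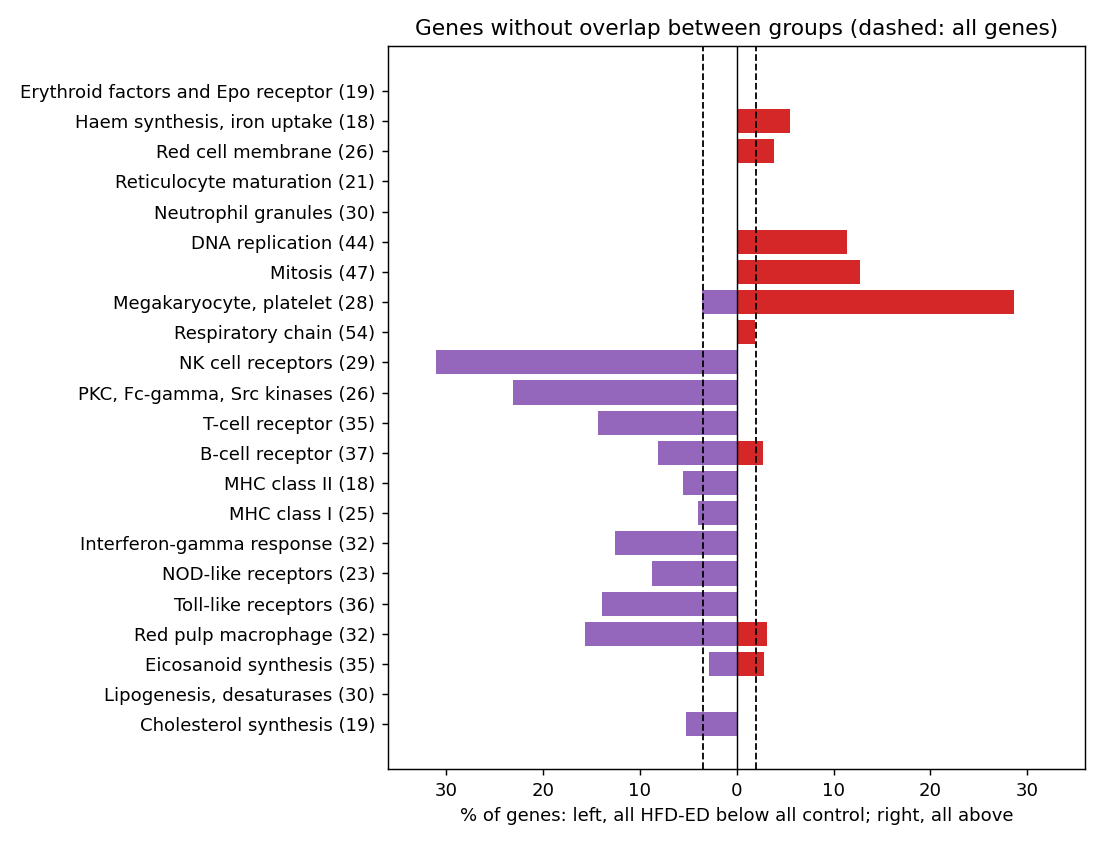
For each gene list (measured genes in brackets) the bar to the right gives the percent of genes with all HFD-ED mice above all control mice and the bar to the left the percent with all below. Megakaryocyte genes reach 28.6% upward and NK receptors 31% downward, whereas the dashed lines mark 1.99% and 3.49% of all genes.

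Lipid genes gave list medians near 0 over all measured members. Of 30 genes of desaturases, elongases and lipogenesis 14 were higher and 16 lower (median -0.0094), of 19 cholesterol synthesis genes 8 and 11 (median -0.0090), and of 19 LXR targets 9 and 10 (median -0.00012). Of 38 PPAR and fatty acid oxidation genes 14 were higher and 24 lower (median -0.017), and of 35 eicosanoid genes 14 and 21 (median -0.0069). At an unadjusted p under 0.05 were 2 higher and 3 lower members of the lipogenesis list, 0 and 1 of the cholesterol list, 2 and 1 of the LXR list, 2 and 3 of the PPAR list and 5 and 5 of the eicosanoid list, where all genes give 5.69% and 7.55%. With dim genes left out the medians were -0.057 for lipogenesis, 0.031 for cholesterol synthesis, which thereby turned direction, -0.089 for LXR targets, -0.075 for PPAR targets and -0.12 for eicosanoid genes. Leaving out 1 mouse turned the direction of the lipogenesis median (control replicate 1 or 4 or HFD-ED replicate 1), the cholesterol median (control replicate 4 or HFD-ED replicate 2), the LXR median (control replicate 3 or HFD-ED replicate 4) and the eicosanoid median (control replicate 1 or HFD-ED replicate 1 or 4).

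Single lipid genes stood away from these medians. Angptl4, a PPAR target that inhibits lipoprotein lipase, measured 8.95, 9.05, 8.84 and 8.91 in control against 8.55, 8.79, 8.57 and 8.36 in HFD-ED, a difference of -0.37 (SE 0.12, adjusted p = 0.377), shared by replicate 1. Angptl4 had another probe, of opposite sign. Elovl5, which elongates polyunsaturated fatty acids, measured 12.05, 11.74, 11.93 and 11.41 in control against 11.59, 11.34, 11.22 and 11.37 in HFD-ED, a difference of -0.40 (SE 0.14, adjusted p = 0.394), with replicate 1 above the lowest control mouse. Lpcat3, which places polyunsaturated fatty acids in phospholipids, measured 8.54, 8.62, 8.69 and 8.74 in control against 8.59, 9.38, 9.62 and 9.30 in HFD-ED, a difference of 0.57 (SE 0.18, adjusted p = 0.356). Replicate 1 lay inside the control range of Lpcat3, and the adjusted p was 0.0366 without it. Fads1, the delta-5 desaturase on the way to EPA and arachidonic acid, was named after its values were seen, at 10.41, 10.28, 10.28 and 10.43 in control against 10.22, 10.72, 10.91 and 10.71 in HFD-ED, a difference of 0.29 (SE 0.12, adjusted p = 0.444). Replicate 1 of Fads1 lay below the control mice, the other 3 above them, and the adjusted p was 0.0366 without it. Fads1 had another probe, of opposite sign. Cyp27a1, a sterol hydroxylase, measured 10.27, 9.84, 9.83 and 9.51 in control against 9.20, 9.55, 9.17 and 9.38 in HFD-ED, a difference of -0.54 (SE 0.15, adjusted p = 0.310), in which replicate 2 overlapped and replicate 1 did not. Insig2, which restrains sterol synthesis, differed by -0.19 (adjusted p = 0.330), with replicate 1 at 8.34 inside the control range. Retsat, retinol saturase, was higher in all 4 mice, at 7.98, 7.88, 7.88 and 7.94 in control against 8.04, 8.17, 8.17 and 8.06 in HFD-ED (adjusted p = 0.204).

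Of the eicosanoid genes, Alox12 was without overlap upward and Ptges3, a prostaglandin E synthase and co-chaperone named after its values were seen, downward, at a difference of -0.24 (adjusted p = 0.359). Alox5, the 5-lipoxygenase, was dim and differed by 0.087 (adjusted p = 0.346), with replicate 1 inside the control range. Ptgis, prostacyclin synthase, and Cyp4f16, of the family that hydroxylates leukotrienes, differed by -0.31 and -0.28 (adjusted p = 0.451 and 0.344), both with overlap and with replicate 1 below all control mice.

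Genes of energy metabolism were slightly higher. Of 54 nuclear genes of the respiratory chain 44 were higher (median 0.10). Of these, 15 had an unadjusted p under 0.05, where 5.69% of all genes were higher at that level. Only 1 was without overlap (1.85%, against 1.99% of all genes). The list medians were 0.011, 0.13, 0.23 and 0.12 in HFD-ED, so that replicate 1 lay at the control mean. Phb2, prohibitin 2 of the mitochondrial inner membrane, measured 10.17, 10.14, 10.06 and 10.23 in control against 10.39, 10.60, 10.47 and 10.53 in HFD-ED, a difference of 0.35 (SE 0.058, adjusted p = 0.193), which replicate 1 shared, and the adjusted p was 0.0483 without it. Prdx3, the mitochondrial peroxiredoxin, measured 8.53, 8.58, 8.75 and 8.77 in control against 8.97, 9.28, 10.04 and 9.18 in HFD-ED, a difference of 0.71 (SE 0.19, adjusted p = 0.300), also in all 4 mice. Of 25 antioxidant genes 19 were higher (median 0.083), but replicate 1 lay above the control mean in 7. This median was 0.040 without control replicate 1 and 0.14, 0.029 and 0.053 without HFD-ED replicates 1, 2 and 4 in turn. Gclm, which supplies glutathione, differed by 1.12 (adjusted p = 0.432), with replicate 1 at 8.36 inside the control range. Gpx1, a glutathione peroxidase, differed by 0.54 (adjusted p = 0.489), with replicate 1 at 13.38 below all control mice. Of 31 proteasome subunits 24 were higher (median 0.046) and 3 were without overlap (9.7%, against 1.99% of all genes), among them Psmd1 at a difference of 0.18 and Psma7 at 0.27 (adjusted p = 0.252 and 0.252). The proteasome median was 0.10 without HFD-ED replicate 1 and 0.026 without replicate 3. Of 49 ribosomal protein genes 16 were higher and 33 lower (median -0.015).

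Genes outside these groups were among those with the smallest p. Zfp58, a zinc finger protein, measured 7.82, 7.82, 7.81 and 7.86 in control against 7.61, 7.68, 7.67 and 7.63 in HFD-ED, a difference of -0.18 (SE 0.020, adjusted p = 0.0710), with replicate 1 the lowest of all. Its adjusted p was 0.0392 with 1 probe per symbol and 0.0203 without replicate 1. Fyb, an adaptor of T cells and platelets, measured 10.06, 10.14, 10.11 and 9.97 in control against 9.86, 9.59, 9.50 and 9.57 in HFD-ED, a difference of -0.44 (SE 0.068, adjusted p = 0.193), and the adjusted p was 0.00773 without replicate 1, which shared the direction at less than the size of the others. Notch4, an endothelial Notch receptor, Sh2b1, an adaptor of insulin and leptin signalling, and Cables2 differed by -0.38, -0.39 and -0.26 (adjusted p = 0.193, 0.193 and 0.193), with replicate 1 below all control mice in each. Cables2 had another probe, of opposite sign. Itm2b, a membrane protein, differed by -0.22 (adjusted p = 0.193, and 0.0366 without replicate 1). Of the 4 probes of Itm2b, 2 had the opposite sign. Gimap5, a GTPase of lymphocyte survival, differed by -0.46 (adjusted p = 0.204, and 0.0287 without replicate 1). Gimap5 had another probe, of opposite sign. Upward, 1110038B12Rik differed by 0.45, Ppp1r14b by 0.20, Ergic2 by 0.20, Gpr19 by 0.10 and Eri2 by 0.10, with adjusted p-values of 0.193, 0.204, 0.207, 0.204 and 0.204 and replicate 1 above all control mice in each. Gpr19 and Eri2 were dim, and Eri2 had another probe, of opposite sign.

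Heat-shock genes were 3 of the 5 genes with the lowest differences, and control replicate 3 was the highest control mouse in all 5. Hsph1, a large heat-shock protein, measured 11.66, 11.50, 12.40 and 11.20 in control against 11.30, 10.03, 10.91 and 10.55 in HFD-ED, a difference of -0.99 (SE 0.55, adjusted p = 0.581). Hspa1a, an inducible Hsp70, measured 8.05, 7.94, 8.86 and 7.53 in control against 7.63, 7.22, 7.33 and 7.31 in HFD-ED (adjusted p = 0.531), and Chordc1, an Hsp90 partner, 11.69, 11.39, 11.79 and 10.75 in control against 11.30, 10.20, 10.72 and 10.55 in HFD-ED (adjusted p = 0.532). In all 3 HFD-ED replicate 1 overlapped with the control mice. Of the 3 probes of Hspa1a, 1 had the opposite sign. Gprasp1, a receptor sorting protein, was without overlap, at 9.73, 9.74, 10.32 and 9.60 in control against 9.30, 8.65, 8.90 and 8.70 in HFD-ED, a difference of -0.96 (SE 0.24, adjusted p = 0.276), with replicate 1 the HFD-ED mouse nearest to control. 1700030K09Rik differed by -0.76 (adjusted p = 0.408), with replicate 1 at 9.29 among the control mice. Of 32 immediate-early and heat-shock genes 24 were lower (median -0.074) and of 19 circadian clock genes 16 (median -0.052). Dbp, an output gene of the clock, measured 9.94, 10.04, 9.26 and 9.53 in control against 8.94, 9.78, 8.92 and 8.84 in HFD-ED (adjusted p = 0.549), with replicate 1 below all control mice and replicate 2 among them.

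Some genes that passed without HFD-ED replicate 1 did not have that mouse beside the other HFD-ED mice. Tusc1 measured 8.13, 8.16, 8.23 and 8.23 in control against 8.17, 8.92, 8.92 and 8.68 in HFD-ED, and its adjusted p of 0.310 became 0.00773 without replicate 1. Cpne2, a copine, measured 7.58, 7.65, 7.67 and 7.65 in control against 7.53, 7.96, 7.92 and 8.004 in HFD-ED, and its adjusted p of 0.431 became 0.00949. Tmem250-ps measured 8.20, 8.30, 8.23 and 8.22 in control against 8.10, 8.70, 8.58 and 8.64 in HFD-ED, and its adjusted p of 0.434 became 0.00949. Replicate 1 lay among the control mice for Tusc1 and below them for Cpne2 and Tmem250-ps. Of the 35 genes higher at an adjusted p of 0.05 without replicate 1, that mouse lay above the control mean in 16, and of the 23 lower ones it lay below in 19.

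Genes of neighbouring tissues were also read, since a trace of them can come with the spleen. Of 26 pancreatic enzyme genes 10 were higher and 16 lower (median -0.0064), with list medians of 0.22, -0.045, -0.12 and -0.090 in HFD-ED replicates 1 to 4 and -0.078, 0.25, -0.040 and -0.11 in control replicates 1 to 4. HFD-ED replicate 1 and control replicate 2 were thus the mice with the highest values. Of 21 adipocyte genes 17 were dim (median difference 0.0071), and of 18 smooth muscle genes 15 were lower (median -0.050). Acta2, smooth muscle actin, differed by -0.31 (adjusted p = 0.440), with replicate 1 inside the control range. The part of these tissues in the results was not tested.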

How the data were processed

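RNA from the spleens of separate mice was hybridized to Illumina MouseWG-6 arrays, 1 array per mouse, so that replicates are biological. The deposited values are log2 intensities to which the authors had applied a variance-stabilizing transformation and quantile normalization in lumi 2.18.0. They run from 6.95 to 14.8. Of 45281 probes, 34885 had 1 gene symbol in the platform annotation, 18 several and 10378 none.

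Differences were fitted with limma 3.58.1 (R 4.3.3) over the 3 diets, with eBayes and Benjamini-Hochberg adjustment over all probes. The fit was tested on simulated data. Tables and figures used Python 3.11.15, pandas 2.3.3, numpy 2.4.6 and matplotlib 3.10.9. Promoters came from RefSeq (GRCm38.p6). The comparison, the 49 gene lists and the tests were chosen with earlier results of these data known. Genes were named by rule: the 10 each way with the smallest p among those without overlap, the 5 each way with the largest difference, up to 3 per list with the smallest p, those the study names, and the 5 each way with the smallest p without HFD-ED replicate 1. Text names part of these, and any others are marked. Alternatives covered pairing, samples, variance model, array weights, normalization, dim probes, probe choice, a plain test and left-out mice. Real-time PCR and plasma measurements were not used here.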

Additional observations from a re-analysis of the deposited data

Results flagged for a closer look

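In 20 of 364 groups of 4 mice tested, 1 mouse stood apart from the other 3 beyond Dixon's critical value, and chance gives this in about 1 in 20 groups. Among the list medians, as deviations from the control mean in log2 units, these were control replicate 1 at -0.016 for proteasome subunits, HFD-ED replicate 4 at -0.10 for the type I interferon response, control replicate 1 at 0.018 for chemokines and their receptors and HFD-ED replicate 2 at -0.046 for cholesterol synthesis. HFD-ED replicate 1 stood apart in 1700030K09Rik (9.29), Irgm2 (9.97) and Marchf1 (9.43). HFD-ED replicate 2 stood apart in Dbp (9.78), Fcmr (12.85) and Mx2 (7.21). For Fcmr, HFD-ED replicates 1, 3 and 4 had the same value of 12.79, so that any other value in replicate 2 would have been flagged. HFD-ED replicate 3 stood apart in Ccl5 (11.01), Cyp4f16 (7.95), Hdc (9.90), Hmgb2 (10.82) and Klri2 (7.23). Control replicate 1 stood apart in Alox5 (7.17) and Pf4 (10.45). Control replicate 2 stood apart in Prkcd (10.85). Control replicate 3 stood apart in Prkcq (7.88). Control replicate 4 stood apart in Marchf1 (9.19). The values in brackets are normalized log2 intensities of that mouse. For Irgm2, Marchf1 and 1700030K09Rik it was HFD-ED replicate 1 that stood nearer to the control mice than the other 3 HFD-ED mice did.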

How the results depend on the processing

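The count of 0 probes at an adjusted p of 0.05 was the same when replicate number entered as a block, with only the 8 arrays, with an intensity trend or robust variances, with array weights, with repeated quantile normalization, with median centring, among probes of mean 7.5 or more and in the plain test per probe. It was 3 with 1 probe per gene symbol (Zfp58, Klra3 and Klre1) and ranged from 0 to 87 when 1 mouse was left out, the 87 without HFD-ED replicate 1. Mice with the same replicate number did not deviate together (r of 0.14, -0.025, 0.16 and 0.024 for replicates 1 to 4, none best with its own number), so that the numbers do not pair the mice, and the replicate block left 0 probes. Leaving out 1 mouse gave 1418 to 2780 higher and 1958 to 3165 lower probes at an unadjusted p under 0.05, and 584 to 1348 higher and 902 to 1439 lower genes without overlap, since a group of 3 overlaps less often. Probes of mean 7.5 or more gave 1019 higher and 1261 lower, and 183 and 424 genes without overlap. The 133 genes examined were read from the same probe throughout, and other probes of a gene were not tried here. None of these 133 differences changed sign with other normalization, with array weights or with a control or HFD-ED mouse left out. In the other alternatives the difference itself stayed the same, so that its sign could not change. Of the 133 genes, 24 passed an adjusted p of 0.05 without HFD-ED replicate 1, and 3 in any other alternative. The naming rule gave 186 genes, not all of which were among the 133, so that the count does not cover every named gene. Grem1, which the study names, was not among them. Its difference went from 0.00058 to -0.037 without HFD-ED replicate 1.

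Of 539 list medians under the alternatives, 499 moved by less than the SD of the list median among the 4 HFD-ED mice. Replicate 1 widens that SD in lists it did not share, and leaving out 1 mouse seldom moves a median so far. The count therefore says little about left-out mice. By this measure the haem median of 0.65 did not move at 0.93 without HFD-ED replicate 1 or at 0.44 without replicate 3. With dim genes left out, the median was 0.26 for cyclins and kinases, 0.15 for DNA repair, 0.94 for HMG-box proteins, 0.43 for megakaryocytes, 0.025 for mast cells, -0.31 for NK receptors, -0.17 for cytotoxic effectors, -0.15 for co-stimulation, -0.11 for type I interferon, -0.14 for NOD-like receptors, -0.12 for the TNF family, -0.23 for chemokines, -0.12 for eicosanoids, -0.057 for lipogenesis, 0.031 for cholesterol synthesis, -0.089 for LXR targets, -0.075 for PPAR targets, 0.042 for adipocytes, -0.13 for smooth muscle, -0.15 for skeletal muscle, -0.062 for stroma, -0.13 for immediate-early and heat-shock genes and -0.13 for circadian genes. With the mean of all probes of a symbol, the circadian median was -0.022. Leaving out 1 mouse moved the median of proteasome subunits over 0.026 to 0.10, mast cells over -0.012 to 0.015, type I interferon over -0.063 to -0.023, the TNF family over -0.053 to -0.016, red pulp macrophages over -0.13 to -0.039, lipogenesis over -0.017 to 0.0062, skeletal muscle over -0.023 to -0.0066, stroma over -0.048 to -0.012, circadian genes over -0.082 to -0.030 and the genes the study names over -0.20 to -0.10. The cause of these shifts was not tested. With 4 mice a group and most genes dim, small differences of dim genes are limited by the array's background.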
